A study of Mus musculus with 4 samples.

Results

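Receptors for neurotransmitters and neuropeptides are the proteins through which cells of the bone marrow can sense nerve endings and locally released signals. The 87 genes described here were chosen by symbol alone, as the tachykinin, adrenergic, nicotinic and muscarinic acetylcholine, serotonin, dopamine, neuropeptide Y, GABA-A, metabotropic glutamate, opioid and VIP receptor genes, out of 37310 genes in the count tables. The rule uses no measured value, but it was proposed with earlier results of these data known. The comparison asks how the levels of these receptors differed with age in the leptin receptor-expressing stroma of the marrow, a population that holds skeletal stem and progenitor cells. Polyadenylated RNA was sequenced from C57Bl/6 mice of WT genotype, male per the study's methods, at 3 months (mature, 2 libraries) and 24 months (elderly, 2 libraries), with no treatment in either group. The study's methods describe cells negative for CD45, CD31 and Ter119 and positive for LEPR (Lin- LEPR+), sorted from digested marrow of femurs and tibiae, whereas the deposited labels name unsorted marrow. Each group drew its RNA from a pool of 3 or 4 animals. The library titles number the mice within each age, and nothing else says how the pools of an age relate to each other, so that the p-values measure the spread between these libraries, which may be partly technical.

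Most receptor families of this set act through G proteins. Those coupled to Gs raise cyclic AMP, those coupled to Gi lower it, and those coupled to Gq release calcium from internal stores. The nicotinic and GABA-A receptors are instead ion channels assembled from several subunits and opened directly by acetylcholine or GABA. Marrow and bone are reached by sympathetic fibres that release noradrenaline and neuropeptide Y, and by sensory fibres that release substance P. Sympathetic signalling to the marrow is well known for its effect on the release of blood stem cells and on bone mass.

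The libraries held 11930137 and 11730849 counts at 3 months and 10472117 and 15650518 at 24 months. Levels are given as counts per 1000000 of the normalized library size (CPM). A count of 3, taken as the limit below which a gene cannot be told from absent, stood for 0.195 to 0.270 CPM. Lepr itself, with 74183 and 65727 counts at 3 months and 45713 and 87711 at 24 months, and Cxcl12, a chemokine of this stroma, were abundant in all 4. The summed level of 12 markers of LEPR stroma was 30425 and 31043 CPM at 3 months, 19240 CPM in elderly replicate 1 and 27254 CPM in elderly replicate 2. None of the 12 passed the test for a difference with age. Of the blood cell markers tested, 6 of 9 neutrophil, 6 of 9 erythroid, 4 of 8 macrophage and 2 of 8 B lineage markers rose with age, and none fell. Of all genes tested, 1.94% rose and 0.423% fell. None of the 7 T cell, 8 megakaryocyte and 8 eosinophil, basophil and mast cell markers tested passed. The summed neutrophil markers were 2115 and 1210 CPM at 3 months against 4533 and 4402 CPM at 24 months, and erythroid markers 444 and 195 CPM against 1470 and 1314 CPM. The macrophage sums overlapped, at 3532 and 3308 CPM against 2010 and 3390 CPM. They include Vcam1, which is also in the LEPR stroma list, so that they do not stand for macrophages alone. The median log2 difference of the 8 macrophage markers tested was 1.69. Neuron markers were close to absent. They summed to between 1.30 and 11.1 CPM over the 4 libraries, with Elavl4, Syt1, Stmn2, Nefl and Th at 0, and none of the 8 tested passed. The part of these other cells in the receptor counts was not tested. In bulk RNA, fewer cells of a type and less RNA per cell cannot be told apart.

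The promoter sequences of the 3 receptor genes that changed with age, and of Adra2a, the most abundant member whose libraries did not overlap between ages without passing the test, are shown because the results below turn on these 4 genes. Each is the 250 bases before the RefSeq start of the gene in GRCm38.p6, a later build than that of the counts, written 5′ to 3′ on the strand of the gene. Capitals mark matches on either strand to the letters TATAAA, known from core promoters, GGGCGG, bound by Sp factors, CCAAT, bound by NF-Y, TGACG, the half-site of the cyclic AMP response element, or GTAAACA, a forkhead motif.
Tacr1, chr6:82402225-82402474, plus strand: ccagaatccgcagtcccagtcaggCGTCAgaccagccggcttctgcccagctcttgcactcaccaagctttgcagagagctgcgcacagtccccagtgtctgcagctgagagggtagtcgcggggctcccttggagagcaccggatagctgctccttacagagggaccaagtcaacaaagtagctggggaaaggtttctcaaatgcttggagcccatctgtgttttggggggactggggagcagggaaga
Vipr2, chr12:116077476-116077725, plus strand: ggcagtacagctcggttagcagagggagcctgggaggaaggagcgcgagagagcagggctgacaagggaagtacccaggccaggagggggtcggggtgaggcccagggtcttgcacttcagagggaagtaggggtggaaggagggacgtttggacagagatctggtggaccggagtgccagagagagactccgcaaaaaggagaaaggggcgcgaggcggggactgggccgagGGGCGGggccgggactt
Npy1r, chr8:66697172-66697421, plus strand: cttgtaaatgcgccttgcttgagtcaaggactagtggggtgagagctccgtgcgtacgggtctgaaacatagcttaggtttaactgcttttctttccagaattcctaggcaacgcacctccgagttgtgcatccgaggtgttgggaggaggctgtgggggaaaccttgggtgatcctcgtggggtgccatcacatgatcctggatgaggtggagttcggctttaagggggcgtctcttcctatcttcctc
Adra2a, chr19:54045009-54045258, plus strand: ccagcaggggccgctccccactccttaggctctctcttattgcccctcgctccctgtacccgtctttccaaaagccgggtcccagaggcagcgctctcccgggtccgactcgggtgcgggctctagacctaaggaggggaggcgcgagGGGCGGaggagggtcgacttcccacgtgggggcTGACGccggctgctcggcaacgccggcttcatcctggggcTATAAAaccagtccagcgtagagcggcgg

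Of the 85 receptors reported here, 66 had an entry among the RefSeq promoters. The GC content of the windows shown was 58.8% for Tacr1, 65.2% for Vipr2, 53.6% for Npy1r and 67.6% for Adra2a, beside a median of 52.4% over 32851 promoter windows. The Tacr1 window held TGACG on the opposite strand, 226 bases before the start. The Vipr2 window held GGGCGG 17 bases before the start. The Adra2a window held TATAAA at 29, TGACG at 69 and GGGCGG at 102 bases before the start, and the Npy1r window held none of the 5 motifs. Over all windows, TATAAA was found in 12.37%, GGGCGG in 32.74%, CCAAT in 33.85%, TGACG in 17.77% and GTAAACA in 3.17%. No 2 of these motifs overlapped in the windows shown. The matches describe the letters only.

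Tacr1, Vipr2 and Npy1r were the receptors that passed the test between ages. Tacr1, the receptor for substance P, was 17.9-fold lower in elderly mice, and Vipr2, a receptor for the vasoactive intestinal peptide VIP and for PACAP, was 4.92-fold lower. Npy1r, a receptor for neuropeptide Y, was 8.40-fold higher. Of the 87 genes, 41 had more than 2 counts in all and were tested among 22214 genes by edgeR's quasi-likelihood test with Benjamini-Hochberg adjustment, called at an adjusted p under 0.05. The test called 1 member higher (2.44% of those tested, beside 1.94% of all genes tested) and 2 lower (4.88%, beside 0.423%). With no overlap between ages, the elderly libraries were the higher pair for 7 members (17.1%, beside 22% of all genes tested) and the lower pair for 9 (22.0%, beside 18.9%), and the libraries overlapped for the other 25. The log2 difference between elderly and mature was above 0 for 16 of the 41 and below 0 for 25, with a median of -0.21, beside a median of -0.0060 over all genes tested. The plot of age differences shows the direction and interval for each of the 18 receptors named with values here.

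**Figure D1:**
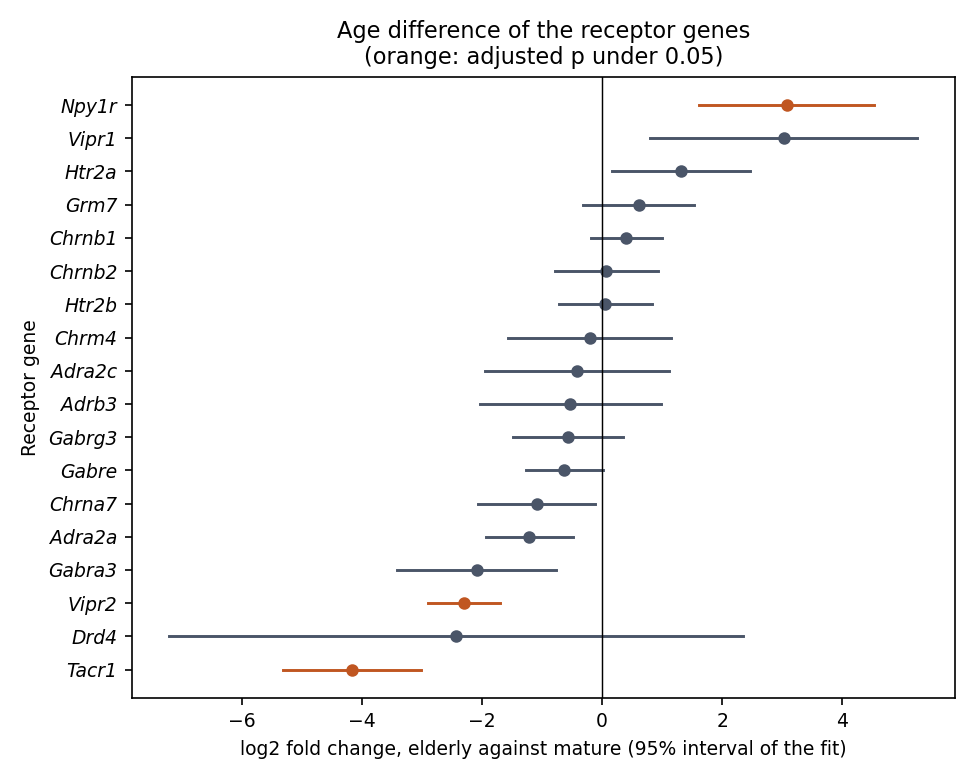
Log2 fold change of 18 receptor genes, elderly against mature (x axis), with an approximate 95% interval derived from the edgeR fit as a bar. Tacr1 and Vipr2, at -4.17 and -2.30, lie left of 0, Npy1r lies right of it at 3.07, and these 3 (orange) are the receptors with an adjusted p under 0.05.

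The 87 genes were unequally measured. No count was seen in any library for 40 of them, and 6 more had 1 or 2 counts in all 4 libraries together. A count of 0 allows up to 3 counts, and this limit covers counting error only. The deposited counting gave no reads to exon bases shared by several transcripts, so the bases left to count differ from gene to gene. Of the 40 genes at 0, 25 had at least 1000 countable bases, among them the substance P relative Tacr3, the opioid receptors Oprd1 and Oprk1, the neuropeptide Y receptors Npy2r and Npy5r, the serotonin receptors Htr1a, Htr2c and Htr3a, and the muscarinic receptor Chrm2. The other 15 had fewer, such as 92 bases for Chrm1, 87 for Drd2 and 22 for Gabra6, and a count of 0 there says little about the level. Only 35 members had more than 3 counts in any library, 18 reached a mean of 1 CPM and 6 a mean of 10 CPM. Beside these 87, the genes named Drd1a and Ppyr1 in the annotation, a dopamine and a pancreatic polypeptide receptor, fall outside the symbols used, and had 2, 0, 0 and 0 counts and 0 in all libraries.

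The summed level of the receptors reported here was lower in elderly mice, at 133 and 219 CPM, than in mature mice, at 417 and 368 CPM. Adra2a and Vipr2 together held between 47.3% and 80.9% of that sum in each library. The plot of summed reads by family shows that the VIP receptors and the alpha adrenergic receptors held fewer CPM in each elderly than in each mature library, while the nicotinic subunits held 26.2 and 25.1 CPM at 3 months and 27.5 and 22.9 CPM at 24 months.

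**Figure D2:**
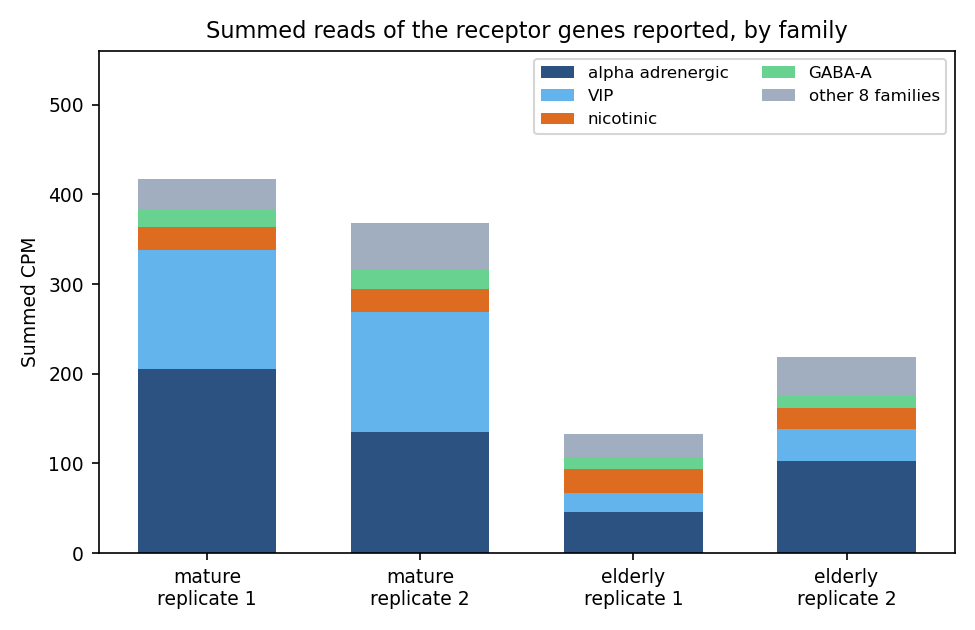
Summed CPM of the receptor genes reported here, by family, in each of the 4 libraries (stacked bars from 0, y axis in CPM). The totals were 417 and 368 CPM at 3 months and 133 and 219 CPM at 24 months, with the VIP receptors at 133 and 134 CPM in mature and 21.4 and 36.1 CPM in elderly mice.

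Levels of different genes were compared per 1000 countable bases. Among the receptors reported here Adra2a ranked first on that scale over the 4 libraries, followed by Vipr2, Chrnb1, Grm7, Adrb3, Htr2b, Gabre, Chrna7, Tacr1 and Chrm4. Adra2a and Vipr2 stood at 31.6 and 26.8 CPM per 1000 bases over the 4 libraries, and Chrnb1 followed at 7.29. The order differed between the ages. In mature mice Vipr2 and Adra2a were level, at 44.7 and 44.2 CPM per 1000 bases, and Tacr1, at 3.72, stood beside Grm7 at 3.69, Htr2b at 3.50 and Chrna7 at 3.20. In elderly mice Adra2a stood at 19.1, Vipr2 at 9.03 and Tacr1 at 0.194. With the longest transcript as the length in place of the countable bases, the first 4 genes kept their places. Adrb3 had 330 countable bases over all its transcripts, beside 2795 bases in the longest. It then fell to place 13 and Chrm4 to place 12, while Htr2b, Gabre, Chrna7 and Tacr1 moved up to places 5 to 8.

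**Figure D3:**
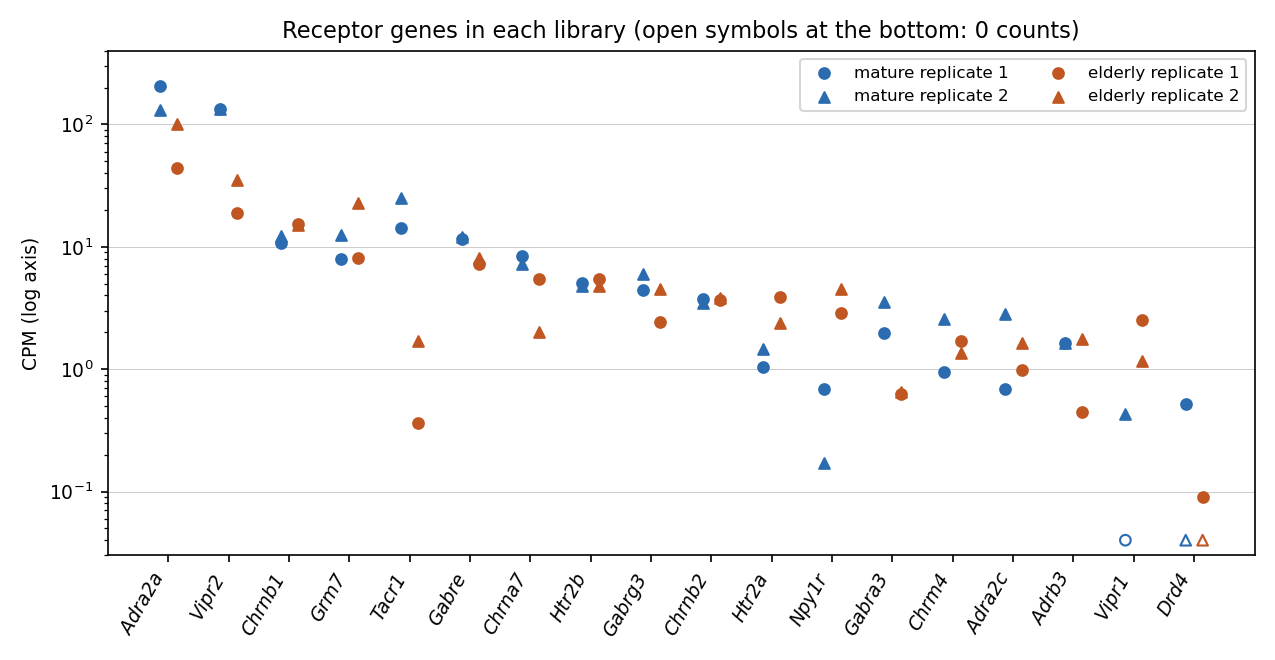
CPM of 18 receptor genes in each library (y axis, log scale), with 1 symbol per library and open symbols at the bottom for libraries with 0 counts. The mature and elderly symbols of Tacr1, Vipr2 and Npy1r are apart, while those of Htr2b and Chrnb2 lie close together.

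Tacr1 encodes the NK1 receptor, a Gq-coupled receptor for substance P, the peptide of sensory nerve endings. The gene lies on the plus strand of chromosome 6, from 82352328 to 82510097 in NCBIM37 (mm9), and its main transcript Tacr1-201 has 6 exons. Its counts were 165 and 290 at 3 months and 4 and 26 at 24 months, or 14.3 and 25.0 CPM against 0.360 and 1.69 CPM. Every elderly library was below every mature library, and elderly replicate 1 was close to the limit of 3 counts. The counting intervals (exact Poisson, 95%) were 12.2 to 16.6 CPM in mature replicate 1 and 1.10 to 2.48 CPM in elderly replicate 2, the libraries nearest to each other.

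The mean level of Tacr1 was 19.6 ± 7.57 CPM at 3 months against 1.03 ± 0.940 CPM at 24 months (both SD, n = 2). The log2 difference was -4.17 (SE 0.52, 95% interval -5.31 to -3.02) with an adjusted p of 0.00208 by edgeR's quasi-likelihood test. Among the 94 genes called lower in elderly mice, Tacr1 was number 7 by the size of the difference and number 8 by p. Nearly all its reads fell on Tacr1-201, which had 148, 288, 4 and 26 counts, while the shorter Tacr1-202 had 17, 2, 0 and 0. Both transcripts had fewer counts in each elderly than in each mature library. The relatives Tacr2 and Tacr3, receptors for neurokinin A and neurokinin B, were close to absent. Tacr2 had 0 and 4 counts in mature and 1 and 2 in elderly mice, and Tacr3 none.

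Vipr2 encodes VPAC2, a Gs-coupled receptor for VIP and PACAP. The gene lies on the plus strand of chromosome 12, from 117316196 to 117384734, and its main transcript Vipr2-201 has 13 exons. Its counts were 1537 and 1551 at 3 months and 210 and 538 at 24 months, or 133 and 134 CPM against 18.9 and 35.0 CPM. The mature libraries were nearly equal, and both elderly libraries were far below them, elderly replicate 1 the lower of the pair. The same library had the lowest sum of LEPR stroma markers. The summed level of 9 osteoblast markers was lower in the elderly libraries, at 2289 and 4194 CPM against 7131 and 6493 CPM. That sum does not stand for each marker, since 2 rose and 1 fell, with a median log2 difference of 0.0019. Over all genes tested, 1.94% rose and 0.423% fell. Of 7 tested chondrocyte markers 2 fell and 1 rose, with overlapping sums of 76.1 and 101 CPM at 3 months and 92.2 and 90.5 CPM at 24 months. Those that fell were Acan, with 117 and 166 counts in mature and 5 and 11 in elderly mice (adjusted p 5.8e-04), and Hapln1, with 56 and 132 against 0 and 0 (0.00109). Both encode parts of the cartilage matrix. They were named after their values were seen and do not stand for the list. The other 4 markers tested did not pass, and the median log2 difference of the 7 was -1.38. The part of osteoblasts and chondrocytes in the counts of Vipr2 and Tacr1 was not tested.

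The mean level of Vipr2 was 133 ± 0.498 CPM at 3 months against 26.9 ± 11.4 CPM at 24 months (both SD, n = 2). The log2 difference was -2.30 (SE 0.27, 95% interval -2.89 to -1.71) with an adjusted p of 0.00154 by edgeR's quasi-likelihood test. With the libraries scaled to the 12 LEPR stroma markers, an alternative chosen after the data were seen, the log2 difference of Vipr2 was -1.93 (adjusted p 0.00220), that of Tacr1 -3.86 (0.00237) and that of Npy1r 3.45 (0.0222). Each was past the threshold on that scale, on which the median of all genes moved to 0.44. An exact test at a set dispersion of 0.2 gave an adjusted p of 0.0684 for Vipr2, short of the threshold. Vipr2 was number 5 by p and number 26 by size among the 94 genes called lower.

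The sister gene Vipr1, for VPAC1, a receptor for the same peptides, had much lower levels. Its counts were 0 and 5 in mature and 28 and 18 in elderly mice, or 0 and 0.431 CPM against 2.52 and 1.17 CPM. Both elderly libraries were above both mature libraries, opposite in direction to Vipr2, and the log2 difference of 3.03 (SE 1.02, 95% interval 0.80 to 5.25) missed the threshold with an adjusted p of 0.216. The difference between the responses of Vipr1 and Vipr2 was not tested. The sum of both genes was 133 and 134 CPM in mature and 21.4 and 36.1 CPM in elderly mice, nearly all of it Vipr2.

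Npy1r encodes the Y1 receptor, a Gi-coupled receptor for neuropeptide Y, which sympathetic fibres release with noradrenaline. The gene lies on the plus strand of chromosome 8, from 69221321 to 69230697, with 1 transcript of 3 exons, all of whose 3007 bases could be counted. Its counts were 8 and 2 at 3 months and 32 and 69 at 24 months, or 0.692 and 0.172 CPM against 2.88 and 4.49 CPM. Both elderly libraries were above both mature libraries, and mature replicate 2 was below the limit of 3 counts. The counting intervals reached up to 1.36 CPM in mature replicate 1 and down to 1.97 CPM in elderly replicate 1.

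The mean level of Npy1r was 0.432 ± 0.367 CPM at 3 months against 3.68 ± 1.13 CPM at 24 months (both SD, n = 2). The log2 difference was 3.07 (SE 0.67, 95% interval 1.62 to 4.52) with an adjusted p of 0.0328 by edgeR's quasi-likelihood test, place 337 by p of the 430 genes called higher and place 69 by size. Without mature replicate 2 the adjusted p was 0.119, at a log2 difference of 2.38. The level stayed low at both ages, at 1.23 CPM per 1000 bases in elderly mice against 9.03 for Vipr2 and 0.194 for Tacr1. Markers of several other cell types had higher sums in both elderly than in both mature libraries. These were neutrophil, erythroid, B lineage (170 and 111 CPM against 926 and 939 CPM), Schwann cell and glia (101 and 82.3 against 160 and 153), endothelial (25.9 and 37.2 against 46.5 and 42.8), T cell (7.69 and 13.95 against 28.0 and 24.2) and neuron markers (1.30 and 4.48 against 11.1 and 7.61). Only 1 of 9 tested Schwann cell and glia markers and 1 of 7 tested endothelial markers passed, and none of the T cell and neuron markers did. The sums of the macrophage, megakaryocyte, smooth muscle and pericyte, and eosinophil, basophil and mast cell markers overlapped between ages. The part of any of these cell types in the Npy1r counts was not tested. The other neuropeptide Y receptors of the set, Npy2r, Npy5r and Npy6r, had 0 counts in every library.

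Without elderly replicate 1, edgeR called none of 21373 genes at an adjusted p under 0.05, and without elderly replicate 2 none of 21390, with 1464 and 1627 genes at an unadjusted p under 0.05. The directions of the 3 receptors stayed. The log2 difference was -3.50 and -5.72 for Tacr1, -1.90 and -2.81 for Vipr2, and 3.38 and 2.71 for Npy1r, with an adjusted p of 0.611 and 0.605 for each of them.

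The adrenergic receptors bind noradrenaline and adrenaline. Adra2a, a Gi-coupled alpha2 receptor with a single exon on the plus strand of chromosome 19 (54119672 to 54123472), had 2362 and 1531 counts at 3 months and 490 and 1551 at 24 months. These were 204 and 132 CPM against 44.1 and 101 CPM. Both elderly libraries were below both mature libraries, by a narrow gap for elderly replicate 2 and a wide one for elderly replicate 1. The mean was 168 ± 51.2 CPM at 3 months against 72.5 ± 40.1 CPM at 24 months (both SD, n = 2), and the log2 difference of -1.21 (SE 0.33, 95% interval -1.93 to -0.49) missed the threshold at an adjusted p of 0.0996. The call depended on the settings. Adra2a passed when only protein-coding genes were fitted (adjusted p 0.0208), without a filter on low counts (2.7e-04) and with the replicate number as a block (4.9e-07). It was far from passing with DESeq2 (adjusted p 0.513), edgeR's robust fit (0.572) and the exact test at a set dispersion of 0.2 (0.756).

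The further adrenergic genes reported here had at most 33 counts in any library. Adra2c, another alpha2 receptor, had 8 and 33 counts in mature and 11 and 25 in elderly mice, with a log2 difference of -0.42 (SE 0.70, adjusted p 0.916). Adrb3, the beta receptor best known from fat cells, had 19 and 19 counts against 5 and 27, at -0.53 (SE 0.69, adjusted p 0.873). The mature and elderly libraries overlapped for both genes, and only 330 bases of Adrb3 could be counted, so that its rank per length rests on few reads. Adrb1 had 0 and 2 counts in mature and 4 and 6 in elderly mice, and Adra1a had at most 4 counts in any library. Adra1d, Adra2b and Adra1b had at most 2, over only 103, 78 and 150 countable bases.

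Acetylcholine acts on nicotinic channels and on muscarinic receptors. Of the 16 nicotinic subunit genes, 8 were tested and none passed. Chrnb1, the beta subunit of the muscle channel, had 125 and 141 counts at 3 months and 170 and 232 at 24 months, or 11.5 ± 0.946 CPM (SD, n = 2) against 15.2 ± 0.163 CPM (SD, n = 2). Both elderly libraries were above both mature ones, and the log2 difference was 0.40 (SE 0.27, adjusted p 0.667). Of its partner subunits, Chrna1 had 2, 0, 0 and 2 counts over 4386 countable bases. Chrnd had 3, 0, 0 and 0 counts, and Chrne and Chrng none, but only 221, 25 and 361 of their bases could be counted.

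Chrna7, whose subunit can form a channel on its own, had 98 and 84 counts at 3 months and 61 and 31 at 24 months. Nearly all of them fell on the transcript Chrna7-202, with 97, 84, 61 and 30 counts. Its annotated coding part has only 435 bases, so that the counts may not stand for the whole subunit. The levels were 7.85 ± 0.875 CPM (SD, n = 2) and 3.75 ± 2.46 CPM (SD, n = 2). Both elderly libraries were below both mature ones, and the log2 difference of -1.09 (SE 0.45, 95% interval -2.06 to -0.11) had an adjusted p of 0.360. Chrnb2, a neuronal beta subunit, had 43 and 40 counts against 41 and 59, with a log2 difference of 0.07 (SE 0.39, adjusted p 0.976). Its usual partner Chrna4 had between 8 and 12 counts in each library.

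Of the 5 muscarinic genes, Chrm4, a Gi-coupled receptor, had the highest level. Its counts were 11 and 30 in mature and 19 and 21 in elderly mice, with overlapping libraries and a log2 difference of -0.21 (SE 0.62, adjusted p 0.952). Chrm3, a Gq-coupled receptor, had 0 and 9 counts against 4 and 31, and Chrm5 had 4 and 0 against 12 and 6. None of the 3 tested muscarinic genes passed.

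Of the 14 serotonin receptor genes, 6 were tested and none passed. Htr2b, a Gq-coupled receptor, had 59 and 55 counts in mature and 61 and 73 in elderly mice, or 4.92 ± 0.257 CPM (SD, n = 2) against 5.12 ± 0.530 CPM (SD, n = 2). The ages overlapped, with a log2 difference of 0.06 (SE 0.35, 95% interval -0.72 to 0.83, adjusted p 0.980). Htr2a, of the same Gq-coupled subfamily, had 12 and 17 counts in mature and 43 and 37 in elderly mice, or 1.25 ± 0.302 CPM (SD, n = 2) against 3.14 ± 1.04 CPM (SD, n = 2). Both elderly libraries of Htr2a were above both mature ones, and the log2 difference of 1.31 (SE 0.53, 95% interval 0.16 to 2.46) had an adjusted p of 0.345.

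The dopamine and opioid receptors were at or near the limit of detection. Drd4, a Gi-coupled dopamine receptor, had 6 and 0 counts in mature and 1 and 0 in elderly mice, with a log2 difference of -2.43 (SE 2.19, adjusted p 0.764). It was the dopamine receptor of the set with the highest level, and the other 3 had 0 counts. Oprm1, the mu opioid receptor, had 2 and 2 counts in mature and 0 and 1 in elderly mice.

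Of the 19 GABA-A and GABA-rho subunit genes, 8 were tested and none passed, and the 3 with a mean of at least 1 CPM had lower fitted levels in elderly mice. Gabre, the epsilon subunit, had 134 and 140 counts in mature and 80 and 124 in elderly mice, or 11.8 ± 0.334 CPM (SD, n = 2) against 7.63 ± 0.605 CPM (SD, n = 2). The libraries of the ages were apart, with a log2 difference of -0.63 (SE 0.29, 95% interval -1.27 to 0.01, adjusted p 0.472). Gabra3, the alpha3 subunit and like Gabre a gene of the X chromosome, had 23 and 41 counts against 7 and 10, or 2.76 ± 1.09 CPM (SD, n = 2) against 0.640 ± 0.0138 CPM (SD, n = 2). Its ages were apart too, and its log2 difference of -2.09 (SE 0.61, 95% interval -3.41 to -0.77) had an adjusted p of 0.124. Gabrg3, the gamma3 subunit, overlapped between ages at 51 and 70 counts against 27 and 70, with a log2 difference of -0.56 (SE 0.42, adjusted p 0.701).

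Subunits of the beta type, which most GABA-A channels hold, included Gabrb1, with 0 and 8 counts in mature and 17 and 0 in elderly mice, and Gabrb2, with 2 counts in 1 library.

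Metabotropic glutamate receptors were represented by Grm7, a Gi-coupled receptor. Grm7 had 92 and 144 counts in mature and 90 and 350 in elderly mice, or 7.95 and 12.4 CPM against 8.11 and 22.8 CPM. Elderly replicate 2 stood above the other 3 libraries, and the ages overlapped. The log2 difference was 0.61 (SE 0.42, 95% interval -0.32 to 1.54, adjusted p 0.673). Its reads were spread over 4 annotated transcripts, and the one with most, Grm7-002, is annotated as a target of nonsense-mediated decay, with 40, 63, 35 and 161 counts. The protein-coding Grm7-001 had 29, 49, 37 and 112. Grm2 and Grm5 had at most 7 counts in any library, and the other 5 genes of the family had 0.

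There were 22 further tested members, with at most 31 counts in any library and a mean below 1 CPM. Their adjusted p was 0.582 or higher. A difference with age was not detectable in these genes at this depth.

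Grouped by the signal each receptor gives, a grouping made after the data were seen, the Gs-coupled receptors reported here held 134.5 and 135.9 CPM in mature and 22.4 and 38.3 CPM in elderly mice, nearly all of it Vipr2. Of the 9 Gs-coupled members 6 were tested, 1 (Vipr2) fell and none rose, where 1.94% of all genes tested rose and 0.423% fell. The 25 Gi-coupled members held 216 and 151 CPM against 58.5 and 132 CPM, mostly Adra2a, and of 10 tested 1 (Npy1r) rose and none fell. The 14 Gq-coupled members held 21.0 and 32.8 CPM against 11.9 and 11.4 CPM, and of 8 tested 1 (Tacr1) fell. Of 37 channel subunits, those reported here held 44.9 and 47.9 CPM against 40.2 and 36.7 CPM, and none of 16 tested passed. The median log2 difference was 0.32 for the Gs-coupled, -0.31 for the Gi-coupled, 0.0091 for the Gq-coupled members and -0.40 for the channels. For the Gs-coupled group the sums and the median differ in direction. The serotonin receptors Htr5a, with 0 counts, and Htr5b, tested with a log2 difference of -1.35, were placed in none of these groups.

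The plot of the receptors among all genes shows where 40 of the 41 tested members lay. For the 18 members with a mean of at least 1 CPM the median log2 difference was -0.31, beside -0.024 over the 14395 genes that reached that level.

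**Figure D4:**
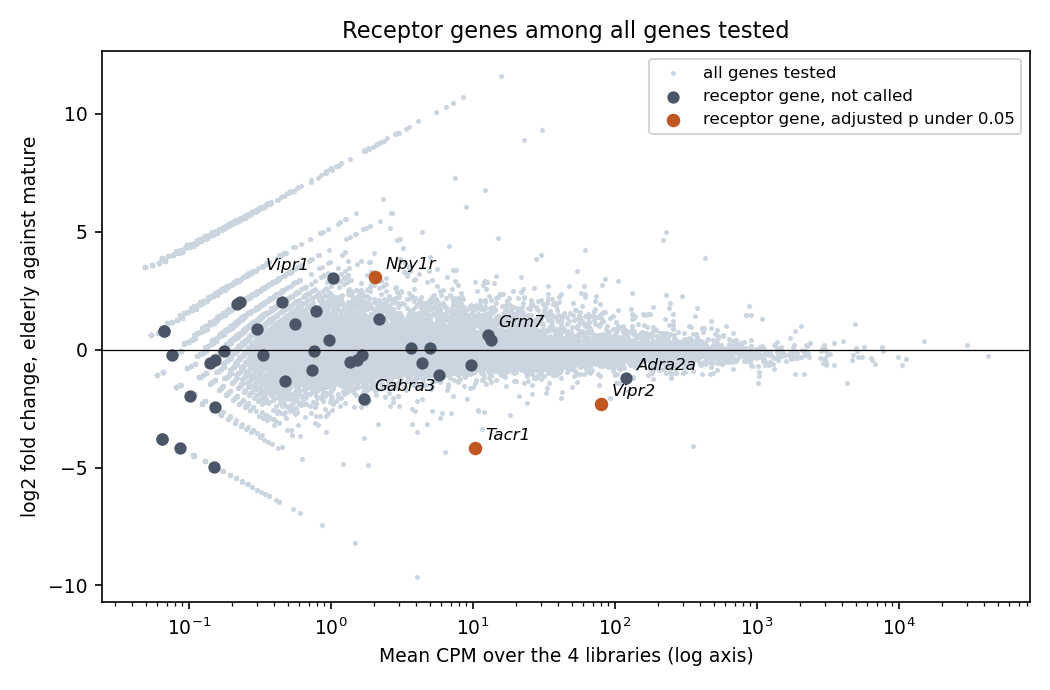
Log2 fold change, elderly against mature (y axis), against the mean CPM over the 4 libraries (x axis, log scale) for all 22214 genes tested (grey) and 40 tested receptors (coloured). Tacr1 at -4.17 and Vipr2 at -2.30 lie below most genes of like level, and Npy1r at 3.07 lies above most.

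Of 25 ligand and synthesis genes found in the tables, 12 had 0 counts in every library and 10 were tested. Vip, with 1527 countable bases, Adcyap1, the gene of PACAP, with 2088, and Npy, with 566, had 0 counts, so that the transcripts of these ligands were not detected. Pyy and Ppy of the same list also had 0, but only 129 and 13 of their bases could be counted. Tac1, the substance P precursor, also had 0, but only 45 of its bases could be counted. Tac4, which encodes another ligand of the NK1 receptor, hemokinin, had 84 and 72 counts in mature and 60 and 73 in elderly mice, with a log2 difference of -0.41 (adjusted p 0.729).

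Penk, the precursor of the enkephalins, was the ligand gene that rose. It had 99 and 85 counts in mature and 238 and 465 in elderly mice, or 7.94 ± 0.875 CPM (SD, n = 2) against 25.8 ± 6.22 CPM (SD, n = 2). Its log2 difference was 1.70 (SE 0.29) with an adjusted p of 0.00997. The enkephalin receptors Oprd1 and Oprm1 had 0 and at most 2 counts per library. Hdc, which makes histamine, had 665 and 415 counts against 931 and 1405, with both elderly libraries higher and a log2 difference of 0.91 (adjusted p 0.0882). Pomc had 16 and 27 counts against 9 and 10 (log2 difference -1.34, adjusted p 0.497) and Pnoc 16 and 24 against 14 and 12 (-0.77, 0.724).

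For the pathway lists, the share of all genes tested that rose was 1.94% and the share that fell 0.423%. Of 42 tested genes for G proteins and second messengers 1 rose and none fell, with a median log2 difference of -0.07. The gene that rose was Plcb2, a phospholipase C of blood cells, with 7 and 11 counts in mature and 57 and 70 in elderly mice (log2 difference 2.62, adjusted p 0.0179). The part of other cell types in its counts was not tested. None of 20 tested genes for receptor desensitization (median 0.08) and none of 19 for accessory and scaffold proteins (median -0.08) passed. Of 20 tested genes for uptake and breakdown of the ligands, Slc22a3, a transporter that clears noradrenaline and other amines, rose. It had 255 and 251 counts in mature and 688 and 740 in elderly mice, a log2 difference of 1.33 (adjusted p 0.0110).

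Among 50 tested receptors of related kinds that the rule does not take in, 4 rose and none fell (1.94% and 0.423% of all genes tested), with a median log2 difference of 0.02. Avpr1a, a Gq-coupled vasopressin receptor, had 301 and 176 counts in mature and 694 and 1519 in elderly mice (log2 difference 1.97, adjusted p 0.00524). Grik3, a kainate glutamate receptor subunit, had 0 counts in both libraries at 3 months and 66 and 53 counts at 24 months, and was at least 18.1-fold higher against a limit of 3 counts per mature library (adjusted p 0.00242). Prokr1, a prokineticin receptor, had 6 and 2 counts against 49 and 40 (3.30, 0.0259), and Ramp1, a partner of the CGRP receptor, 27 and 18 against 89 and 130 (2.08, 0.0165). In all 4 genes both elderly libraries were above both mature libraries, as in 22% of all genes tested. Since the test picked these genes, that order adds no further support. Over the 6 pathway lists, 7 genes rose and none fell.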

How the data were processed

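Per the study's methods and the submitters' processing notes, the authors checked reads with FASTQC, trimmed them with cutadapt, mapped them with HISAT2 to mm9 and counted them with featureCounts in Galaxy. The authors deposited whole-number counts per Ensembl transcript, without normalization. The strand setting of the counting is not given in the sources used here, so reads of overlapping antisense genes cannot be told apart. Of 95883 transcripts, 95495 matched GENCODE release M1 (NCBIM37) and were summed into 37310 genes. The 388 unmatched held 0.0785% to 0.0888% of the counts. All 25621 transcripts with no exon base of their own had 0 counts, and countable bases are the exon bases covered by 1 transcript only.

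Genes with more than 2 counts in all (22214) were scaled by TMM and tested with edgeR 4.0.16 (quasi-likelihood, R 4.3.3), elderly against mature, 2 libraries each, grouped by the titles of the labels, with Benjamini-Hochberg adjustment over all genes tested. The biological coefficient of variation was 0.265, with prior degrees of freedom of 9.96. Replicates differed by more than sampling noise (chi-square per degree of freedom 16.2 in mature and 36.1 in elderly). CPM are counts over the TMM-scaled library size. Fold changes used a prior count of 0.125. DESeq2 1.42.0 and other settings were tried as alternatives.

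The receptors and all lists were chosen with earlier results of these data known. Receptors are named with values if called, if at a mean of 1 CPM or more, or if highest in their family with more than 3 counts. Other genes of low count are given as examples chosen after their values were seen, as were the motifs, the Adra2a promoter and the grouping by signal. Some genes are not reported here: they entered the fit and the counts of members, but not the summed levels or ranks. Poisson intervals cover counting error only.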

Additional observations from a re-analysis of the deposited data

How the results depend on the processing

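No called receptor changed direction under any alternative run. Of the 15 named receptors not called, 6 changed sign under some alternative, in each case short of the threshold. With a library left out, the log2 difference ranged from -1.09 to 0.90 for Adra2c, from -1.84 to 0.13 for Adrb3, from -0.32 to 1.19 for Grm7, from -0.75 to 0.65 for Chrm4, from -0.0060 to 0.13 for Chrnb2 and from -0.024 to 0.16 for Htr2b. Scaled to the LEPR stroma markers, it was 0.25 for Chrm4. Tacr1, Vipr2 and Npy1r passed under DESeq2, another filter (edgeR's filterByExpr), other scalings and transcript-level counts, and the exact test lost Vipr2 (log2 difference -2.30, adjusted p 0.0684). The number of receptors called higher, 1, became 2 without a filter and 2 with the replicate number as a block, and ranged from 0 to 1 with a library left out. The number called lower, 2, became 1 with the exact test, 4 without a filter and 5 with the block, and ranged from 0 to 2 with a library left out. The number called lower was also 3 over protein-coding genes and 3 at an adjusted p under 0.1, with Adra2a gained in each. The receptors gained with the block were Adra2a (-1.29, adjusted p 4.9e-07), Gabra3 (-2.06, 0.0365), Chrna7 (-1.20, 0.0282) and Vipr1 (3.04, 0.0390), and those gained without a filter were Adra2a (-1.19, 2.7e-04), Gabra3 (-2.07, 0.0404) and Vipr1 (3.04, 0.0289). Without mature replicate 2, Vipr1 passed (adjusted p 0.0415), with 0 counts in the mature library left, so that the fitted difference depends on the prior count and is not given. Same-numbered libraries shared only a number. Over the genes tested, the deviations of the mature and the elderly replicate 1 from the mean of their age had a correlation of 0.00919. The block raised the calls over all genes from 430 to 962 higher and from 94 to 314 lower. The median log2 difference of the receptors, -0.21, became 0.25 when scaled to the LEPR stroma markers, where the median of all genes was 0.44, and ranged from -0.34 to -0.062 with a library left out. The 7 pathway list genes called higher became 11 with DESeq2, 3 with the exact test, 16 with the robust fit, 18 without a filter, 11 over protein-coding genes, 4 with a log2 difference over 2, 12 at an adjusted p under 0.1, 18 with the block and 12 with the stroma scaling, and 0 to 9 with a library left out. The number of them called lower, 0 (by DESeq2 also 0), became 2 with the robust fit, 4 without a filter, 1 over protein-coding genes and 6 with the block, and 0 to 1 with a library left out. The cause of these shifts was not tested. Receptors with few counts or few countable bases were beyond what this depth could measure.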
